A study of Rattus norvegicus with 6 samples.

Results

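Galectins are a family of sugar-binding proteins, and their RNA was followed here in brain capillaries of stroke-prone spontaneously hypertensive rats (SHRSP), in a control group and in groups treated with an ACE inhibitor (ACEI) or an angiotensin receptor blocker (ARB). The members were all probe sets of this Affymetrix rat array whose only annotated symbol was Lgals1, Lgals3, Lgals4, Lgals5, Lgals8 or Lgals9. This gave 6 of the 8799 probe sets and 5 of the 4736 genes named by a probe set of their own: Lgals1, Lgals3, Lgals4 and Lgals8 had 1 each, Lgals9 had 2 and Lgals5 had 0. One further probe set, L21711_s_at, is annotated to Lgals9 and Lgals5 together, so it is described beside the members and counted for neither gene. The family was chosen by the measured values of this table, namely a lower Lgals3 level on the drug arrays. All differences of the galectin probe sets from control below are therefore descriptions without a test.

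The series held 6 arrays, 2 for each of 3 groups, each hybridised with total RNA of cerebral microcapillaries from SHRSP aged 6 weeks. SHRSP are an inbred strain that develops high blood pressure and strokes. The ARB group received olmesartan by mouth (4 mg/kg per day), an antagonist of the angiotensin type 1 receptor. The ACEI group received lisinopril (6 mg/kg per day), which slows the making of angiotensin II. A salt load of 1% NaCl is mentioned too, without saying whether it went to the controls alone or to every group. How long the drugs were given and how many animals went into an array are not given in the sources used here. Nothing says that the arrays of a group came from separate animals, so p-values measure the spread between arrays, which may be technical. By the study's title the arrays were made to learn how angiotensin II affects gene expression in these vessels.

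Galectins bind beta-galactosides on glycoproteins and glycolipids. They lack a signal peptide, reach the outside of the cell by an unconventional route, and also act in the cytosol and nucleus. Galectin-1 has a single carbohydrate-recognition domain and forms dimers, and it is abundant in vascular and connective tissue cells. Galectin-3 is the chimeric member, which joins such a domain to a tail that lets it cross-link glycoproteins, and it is made in quantity by activated macrophages and microglia. Galectin-4, galectin-8 and galectin-9 are tandem-repeat members with a pair of different domains in the same chain. Galectin-5 is a rat galectin first known from reticulocytes and red blood cells.

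Lgals5 and Lgals9, the genes of the shared probe set, are close in sequence before their starts. To show how alike they are there, the 250 bases before the annotated start of each gene are printed here from RefSeq on the build GRCr8, 5′ to 3′ in the direction of the gene. Both lie on the minus strand, Lgals5 at chr10:64355138-64355387 and Lgals9 at chr10:64428071-64428320. Capitals mark runs of at least 20 bases that are identical in the pair, and there were 3 such runs with 155 bases in all.
Lgals5: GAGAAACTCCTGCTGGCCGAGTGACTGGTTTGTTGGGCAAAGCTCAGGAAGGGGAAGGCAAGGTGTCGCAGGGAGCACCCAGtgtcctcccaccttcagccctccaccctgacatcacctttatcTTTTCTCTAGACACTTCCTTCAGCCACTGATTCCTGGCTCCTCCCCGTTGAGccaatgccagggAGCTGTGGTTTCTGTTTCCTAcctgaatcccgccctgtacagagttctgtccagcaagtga
Lgals9: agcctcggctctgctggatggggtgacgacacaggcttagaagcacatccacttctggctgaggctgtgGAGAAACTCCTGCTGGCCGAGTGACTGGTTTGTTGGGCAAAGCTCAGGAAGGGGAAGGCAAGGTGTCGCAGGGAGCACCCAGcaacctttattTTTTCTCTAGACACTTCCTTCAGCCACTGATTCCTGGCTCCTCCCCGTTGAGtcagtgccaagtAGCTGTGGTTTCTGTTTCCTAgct
Over the 181 bases that align, 175 (96.7%) were the same, and the longest identical run had 82 bases. The same stretches of Lgals4 and Lgals8, the other members in the promoter table, were 56.7% to 65.2% identical to each other and to these, with no identical run above 9 bases. These bases precede the start and are no part of the mRNA, so they say nothing of the probes. Probe sequences were not used here, and which of the 2 genes the shared probe set detects was not tested.

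The deposited intensities are linear values with no detection calls, and levels are not compared between probe sets. The arrays had been scaled alike, with means after trimming 2% at either end of 997.7 to 1002, while their medians ran from 244.9 to 493.8. Foreign-transcript controls, which have no target in rat RNA, had a median of 18.4 to 28.6 on the control and ACEI arrays and of 105.6 and 86.6 on ARB 1 and ARB 2. The highest of them was at 68.7 to 168.3 on the control and ACEI arrays and at 545.3 and 522.9 on ARB 1 and ARB 2. Gapdh, a glycolytic gene probed at both ends of its mRNA to follow RNA integrity, gave a 3′ over 5′ ratio of 7.31 on control 2 and of 0.933 to 1.59 elsewhere. The control pair was the least alike, with 34.5% of tested probe sets over 2-fold apart against 17.8% for ACEI and 15.2% for ARB. The first run day, with a chip lot of its own, held control 1 and ACEI 1, and a later day, with another lot, held the other 4 arrays. Markers of brain endothelium were present, with Slc2a1 (the glucose transporter of the barrier) at 27457 to 66763 and the anion transporter Slco1a4 at 17074 to 79016. Pecam1, an endothelial junction molecule, was at 193.8 on control 2 against 5538 on control 1, and Cldn5, Cdh5 and Tek had no probe set of a single symbol. Ttr, a marker of choroid plexus epithelium, was at 201474 to 202386 with ARB and at 30927 to 92148 elsewhere.

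**Figure D1:**
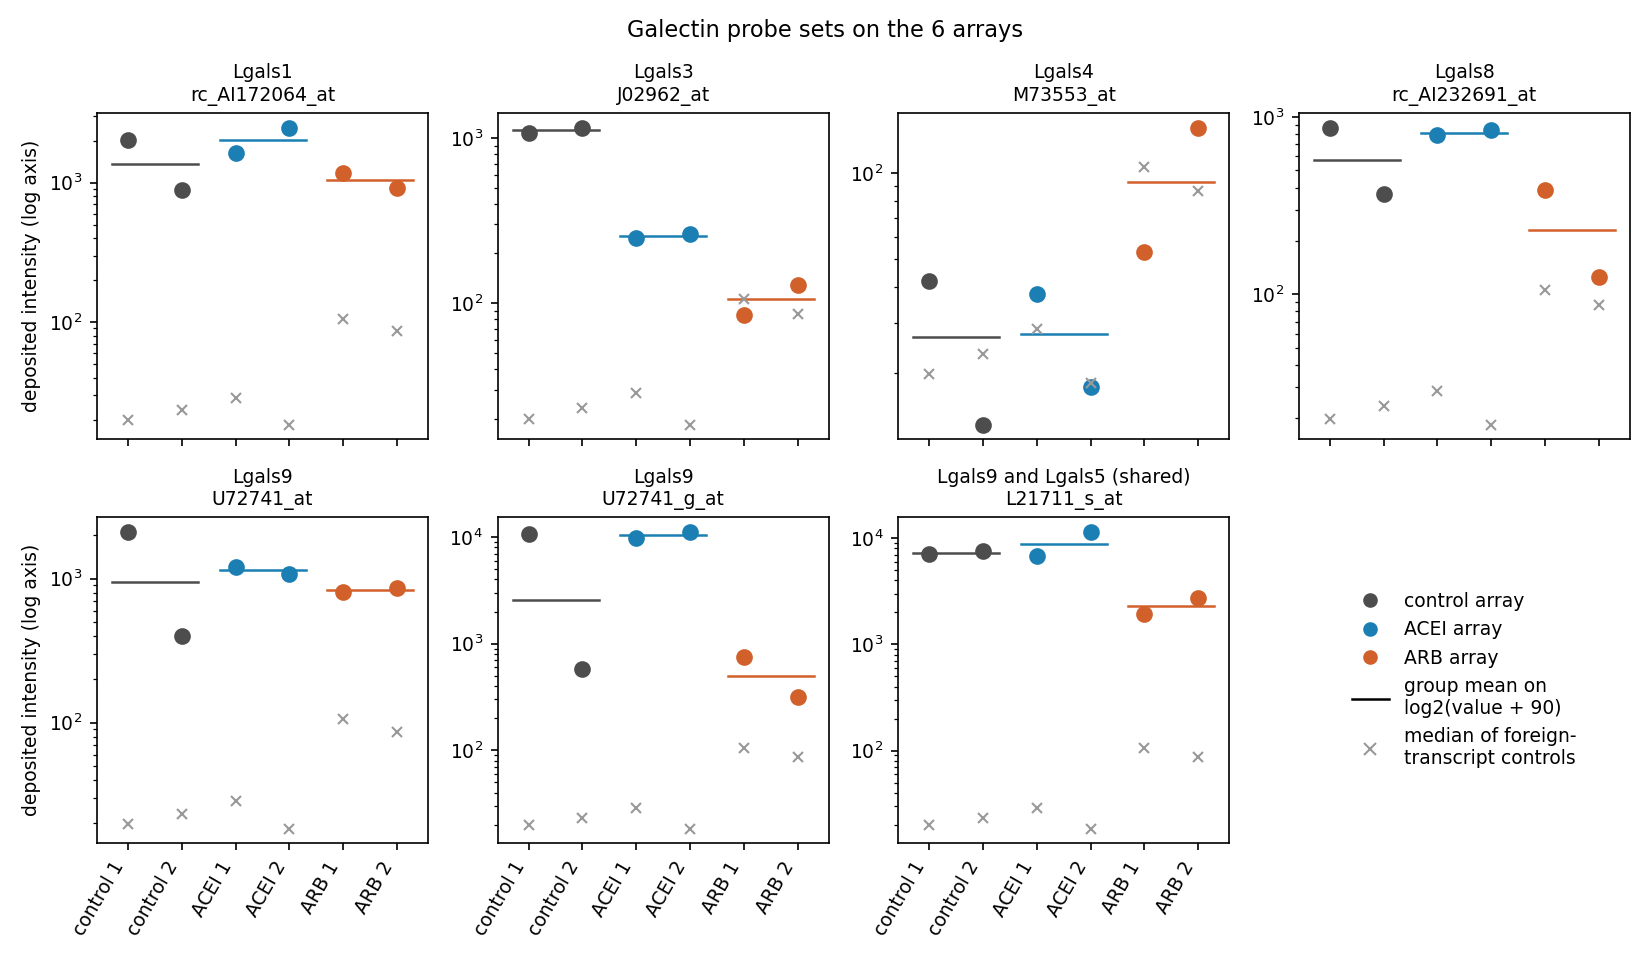
Deposited intensity (log axis, own range in each panel) of the 6 galectin probe sets and of the probe set shared by Lgals9 and Lgals5 on each of the 6 arrays. Points are arrays, horizontal lines are group means on the log2(value + 90) scale turned back to intensity, and crosses are the median of the foreign-transcript controls on that array. Lgals3 is the panel in which both controls lie above all 4 drug arrays, and the Lgals9 probe set U72741_g_at drops from 10575 on control 1 to 575.6 on control 2.

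Lgals3, the galectin of phagocytes, was lower with both drugs, and its arrays were nearly alike within each group. Its probe set J02962_at read 1070 and 1152.5 on the 2 controls, 248.9 and 263.9 on ACEI 1 and ACEI 2, and 84.9 and 128.4 on ARB 1 and ARB 2. The groups did not overlap: both controls were high, both ACEI arrays intermediate and both ARB arrays low. The log2 difference, taken on log2(intensity + 90), was -1.79 ± 0.44 (SE of the linear model, n = 2 against 2) for ACEI minus control, which is 3.47-fold lower. It was -2.62 ± 0.44 for ARB minus control, but both ARB values were below the highest foreign-transcript control of their arrays and the value on ARB 1 was below the median of those controls. The size of the ARB difference is therefore not resolved. With each value held at no less than the highest foreign-transcript control of its array, a floor chosen after seeing the data, Lgals3 was at least 1.92-fold lower on ARB than in the control pair. Both ACEI values were above that floor. For RAS blockade, the mean of both drugs against control, it was -2.21 ± 0.38, which takes in the same ARB values, and this is the value known when the family was chosen. Among the 5244 probe sets tested, Lgals3 included, 0.343% were at least as far below 0 for ACEI minus control. All arrays of the drug group lay below both controls in 3.72% of tested probe sets for RAS blockade, 11.9% for ACEI and 16.8% for ARB. The choice of the family used these comparisons. In whole capillary RNA, fewer cells of a type and less RNA per cell cannot be told apart.

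The Lgals3 difference for ACEI minus control was nearly the same on both run days, each with 1 ACEI and 1 control array. It was -1.78 within the first day and -1.81 within the later day. ARB minus control was -2.67 within the later day, and no ARB array was run on the first. Without control 1 the RAS blockade difference was -2.26 and without control 2 it was -2.16, and leaving out any single drug array gave -2.13 to -2.29. The control pair differed by 0.10 on the log2 scale for Lgals3, and 91.7% of tested probe sets had controls at least that far apart. The ARB difference depended on the offset: it was -3.22 with an offset of 16 and -1.66 with an offset equal to the overall median. On the ARB arrays Lgals3 ranked above 13.8% and 20.5% of gene probe sets, against 75.4% and 78.7% in the control pair and 42.1% and 51.1% on the ACEI arrays.

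The order of the deposited Lgals3 values was control, ACEI, ARB, and the difference between the neighbours ACEI and ARB did not pass the test in limma. The SE of that fit draws in part on the spread of all tested probe sets. For Lgals3 itself the SD on the log2 scale was 0.044 in the ACEI pair and 0.23 in the ARB pair. ARB minus ACEI was -0.83 ± 0.44 (limma, adjusted p = 0.303 over all tested probe sets), with both ARB arrays below both ACEI arrays. Over the alternatives this difference ran from -1.41 to -0.40 with adjusted p from 0.14 to 0.689. After quantile and cyclic loess normalization, which remove the higher median of the ARB arrays, it was -1.38 and -1.41. With the floor the ARB arrays read above the ACEI arrays, so no fold is given for this pair.

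Markers of blood-borne myeloid cells had a lower summed intensity on the drug arrays. S100a9 and S100a8 made up most of that sum on the control and ACEI arrays, and the other measured markers most of it on the ARB arrays. Of a list of 15 neutrophil and monocyte markers 7 were measured, and their summed intensity was 9257 and 9926 in the control pair, 2942 and 5198 with ACEI and 2709.9 and 3049.6 with ARB. The brightest were S100a9 and S100a8 (the calprotectin subunits) and Defa5 (a defensin). S100a9 read 4805 and 5309.6 in the control pair, 1143.5 and 3158 on ACEI and 481.8 and 792 on ARB. S100a8 was at 2686 and 2679 in the control pair, 962.2 and 1586 on ACEI and 395.9 and 79.6 on ARB. Defa5 went the other way with ARB, at 359.8 and 121.9 in the control pair, 162.7 and 124.8 on ACEI and 816.8 and 766.3 on ARB. The neutrophil collagenase Mmp8 and the chemokine receptor Cxcr2, which did not pass the filter, also read higher on both ARB arrays than on either control. The ARB values of Mmp8, Cxcr2 and S100a8 and the S100a9 value on ARB 1 were below the highest foreign-transcript control of their arrays. The sizes of those ARB differences are therefore not resolved. Macrophage and microglia markers, of which 15 of 27 were measured, summed to 75141 and 79935 in the control pair, 53309 and 84685 on ACEI and 46799.9 and 48116 on ARB. Their brightest members were the protease Ctss at 24599 to 40293, Lyz2 (lysozyme) at 4550.2 to 16585 and C1qb (complement) at 2639 to 15963, and no marker of either list was at 0. On ACEI 2 the macrophage sum was above both controls, while Lgals3 was at 263.9. The part of these cells in the Lgals3 difference was not tested.

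Lgals9 encodes galectin-9, a tandem-repeat member that attracts eosinophils and binds the T-cell surface protein Tim-3. Its probe set U72741_g_at read 10575 and 575.6 on control 1 and control 2, 9741 and 11187 with ACEI, and 745.4 and 317.3 with ARB. Control 1 and both ACEI arrays were thus high and the other 3 arrays low. The value on control 1 was 18.4-fold that on control 2, and 0.896% of tested probe sets had controls at least as far apart on the log2 scale. The log2 difference was 1.98 ± 1.09 for ACEI minus control and -2.19 ± 1.09 for ARB minus control. Each rested on which control was used: without control 1 they were 3.98 and -0.19, and without control 2 they were -0.02 and -4.19.

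Between the drugs U72741_g_at differed by the most of all galectin probe sets. ARB minus ACEI was -4.17 ± 1.09, with both ARB arrays below both ACEI arrays (limma, adjusted p = 0.128). The value on ARB 2 was below the highest foreign-transcript control of its array and that on ARB 1 above it, and with the floor the ARB level was at least 14.7-fold lower. Of the tested probe sets 2 (0.0381%) were at least as far below 0. With the ACEI and ARB arrays alone in the fit, so that the control pair no longer entered the spread, the same difference had an adjusted p of 0.0204 in limma, and 305 probe sets were called where 0 were called with all arrays. With array weights the adjusted p was 0.0238 and 518 probe sets were called. Within the later run day alone the difference was -4.27 (limma, adjusted p = 0.0617), and over all alternatives the adjusted p ran from 0.0204 to 0.681.

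In the other Lgals9 probe set the same arrays were above the rest, but the difference between the drugs was far smaller. U72741_at, made to the same transcript record, read 2113.7 and 397.4 in the control pair, 1210 and 1074.7 on ACEI and 805.3 and 867.7 on ARB. Control 1 was the highest array and control 2 the lowest. Between them both ACEI arrays were above both ARB arrays, and 8.09% of tested probe sets had controls at least as far apart. Its difference was 0.25 ± 0.69 for ACEI minus control and -0.16 ± 0.69 for ARB minus control, and -0.41 ± 0.69 for ARB minus ACEI (limma, adjusted p = 0.76). Without control 2 the first of these was -0.84, and without control 1 the second was 0.93. The 2 probe sets of Lgals9 thus gave -0.41 and -4.17 for ARB minus ACEI, and the gap between them was not tested.

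Control probe sets for beta-actin, a cytoskeletal gene with no part in the family, were high and low on the same arrays as U72741_g_at. The 3′ beta-actin probe set was at 24581 and 2329 in the control pair, 22165 and 25420.2 on ACEI and 5257 and 5662 on ARB. The 5′ beta-actin probe set was at 22335 and 740.2 in the control pair, 21277 and 18810 on ACEI and 2560 and 3427 on ARB. Both were thus high on control 1 and the ACEI arrays and low on control 2 and the ARB arrays. For beta-actin the 3′ over 5′ ratio was 3.15 on control 2, 2.05 and 1.65 with ARB and 1.04 to 1.35 on the other 3. The part of RNA quality in the Lgals9 values was not tested.

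**Figure D2:**
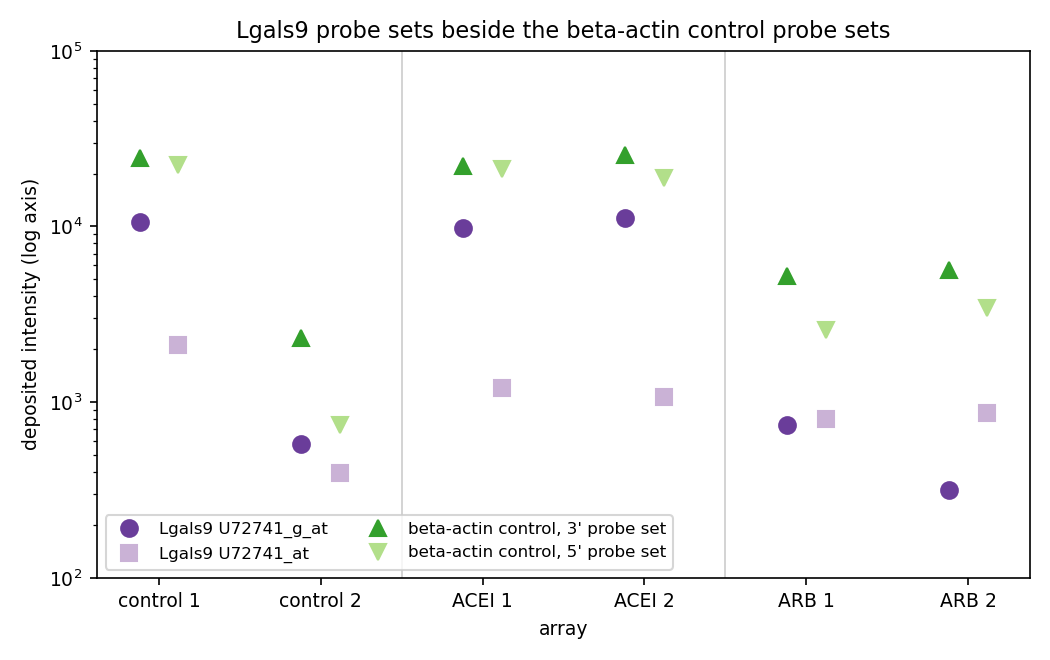
Deposited intensity (log axis) of the 2 Lgals9 probe sets and of the 3′ and 5′ beta-actin control probe sets on each of the 6 arrays, 1 point per array. U72741_g_at and both beta-actin probe sets are high on control 1, ACEI 1 and ACEI 2 and low on control 2, ARB 1 and ARB 2, while U72741_at stays between 397.4 and 2113.7.

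The probe set shared by Lgals9 and Lgals5, L21711_s_at, was lower with ARB and had like control arrays. Its intensity was 7067 and 7508 in the control pair, 6730.2 and 11471 on ACEI and 1953 and 2705 on ARB. Both ARB arrays were low, the controls and the ACEI arrays overlapped, and 92.7% of tested probe sets had controls at least as far apart. The difference was -1.63 ± 0.48 for ARB minus control (3.09-fold lower) and 0.27 ± 0.48 for ACEI minus control, which was -0.11 without ACEI 2. ARB minus ACEI was -1.89 ± 0.48 (limma, adjusted p = 0.128). With array weights, a fit in which 518 probe sets were called, the adjusted p in limma was 0.0355, the lowest over the alternatives. Within the later run day ARB minus control was -1.67. Galectin-5 is known from red blood cell precursors, and the summed intensity of 10 measured erythroid markers of 23 was 52643 and 165871 in the control pair, 50673 and 68914 on ACEI and 66222 and 56257 on ARB. The ARB arrays lay within the range of the controls in that sum, and no erythroid marker was at 0. The brightest erythroid markers were the globin genes Hbb and Hbb-b1 and Alas2, the haem synthesis enzyme of red blood cell precursors. Alas2 was at 10011 and 9087 in the control pair, 2940.5 and 4310 on ACEI and 2247 and 679.6 on ARB. Hbb and Hbb-b1 differed by -0.03 and -1.58 for ARB minus control. Of the 8 tested erythroid markers 4 were higher and 4 lower in that comparison, with a median of 0.018.

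Lgals1 encodes galectin-1, the dimer-forming member of smooth muscle, endothelium and fibroblasts. Its probe set rc_AI172064_at read 2025 and 890.4 in the control pair, 1627 and 2471 on ACEI and 1176 and 917 on ARB. Both drug groups overlapped the controls, and 30% of tested probe sets had controls at least as far apart. The difference was 0.54 ± 0.54 for ACEI minus control and -0.35 ± 0.54 for ARB minus control. Without control 2 the ACEI value was -0.01, and without control 1 the ARB value was 0.20. Within the first run day ACEI minus control was -0.30 and within the later day 1.39. Both ARB arrays lay below both ACEI arrays, by -0.89 ± 0.54 (limma, adjusted p = 0.352). For RAS blockade the difference was 0.10 ± 0.46, and it was -0.11 after quantile normalization.

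Lgals8 encodes galectin-8, a tandem-repeat member that binds integrins and marks damaged endosomes. Its probe set rc_AI232691_at read 869.1 and 369.7 in the control pair, 790.6 and 845.5 on ACEI and 388.5 and 125.6 on ARB. The ACEI pair was tight, ARB 2 was the lowest of the 6 arrays, and 31.9% of tested probe sets had controls at least as far apart. The difference was 0.45 ± 0.58 for ACEI minus control, which was -0.08 without control 2, and -1.05 ± 0.58 for ARB minus control, which was -0.52 within the later run day. ARB minus ACEI was -1.50 ± 0.58 (limma, adjusted p = 0.182), and -0.92 without ARB 2. Both ARB values were below the highest foreign-transcript control of their arrays, so the sizes of these ARB differences are not resolved. With the floor, ARB was at least 1.45-fold lower than ACEI. Against the mean of the control pair it was at least 1.06-fold lower, which rested on control 1. The floors of 545.3 and 522.9 on ARB 1 and ARB 2 were above control 2, so against that array no direction was resolved.

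Lgals4 encodes galectin-4, a tandem-repeat member best known from intestinal epithelium, and its probe set M73553_at gave no level that stood out from background. It read 42.0 and 13.2 in the control pair, 37.9 and 17.9 on ACEI and 52.9 and 144.2 on ARB, each below the highest foreign-transcript control of its array. Its mean was among the lowest 40%, which were left out of the test. The higher values on ARB came with the higher foreign-transcript values on those arrays, and no fold is given.

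Across the family the direction differed by comparison. Of the 5 tested galectin probe sets 4 were higher and 1, Lgals3, lower for ACEI minus control, with a median of 0.45 against -0.04 over all tested probe sets. Of all tested probe sets 53.1% were lower in that comparison. For ARB minus control all 5 were lower, with a median of -1.05 against 0.18, and 41.9% of all tested probe sets were lower. Within the later run day Lgals1 and U72741_at of Lgals9 were higher instead, at 0.20 and 0.93. For ARB minus ACEI all 5 were lower as well, with a median of -0.89 against 0.15, and 43.5% of all tested probe sets were lower. With 1 probe set per gene the median was -1.20 over 4 genes. These ARB medians rest in part on values below the highest foreign-transcript control. With the floor 5 of 5 were lower for ARB minus control, with a median of -0.35 and with Lgals8 at -0.09, which rested on control 1. For ARB minus ACEI 4 of 5 were lower, with a median of -0.54, Lgals3 being the exception. The comparisons share arrays, so these medians are not independent of each other. All 5 also had both ARB arrays below both ACEI arrays, which held for 25.3% of all tested probe sets. In all but Lgals3, control 1 and both ACEI arrays were above control 2 and both ARB arrays. The beta-actin control probe sets split the arrays in the same way, and the part of RNA quality in these family directions was not tested. Among tested members, both ARB arrays were below both controls for Lgals3 alone, 1 of 5, as for 16.8% of all tested probe sets. In limma 0 of the 5 passed an adjusted p of 0.05 for ARB versus ACEI, where 0 of 5244 passed (0%), and Lgals8 and U72741_g_at of Lgals9 had an unadjusted p under 0.05, as did 22.3% of all tested probe sets. Quantile normalization moved the median of all tested probe sets for ARB minus control from 0.18 to -0.07 and for ARB minus ACEI from 0.15 to -0.05, and all 5 members stayed lower in both.

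**Figure D3:**
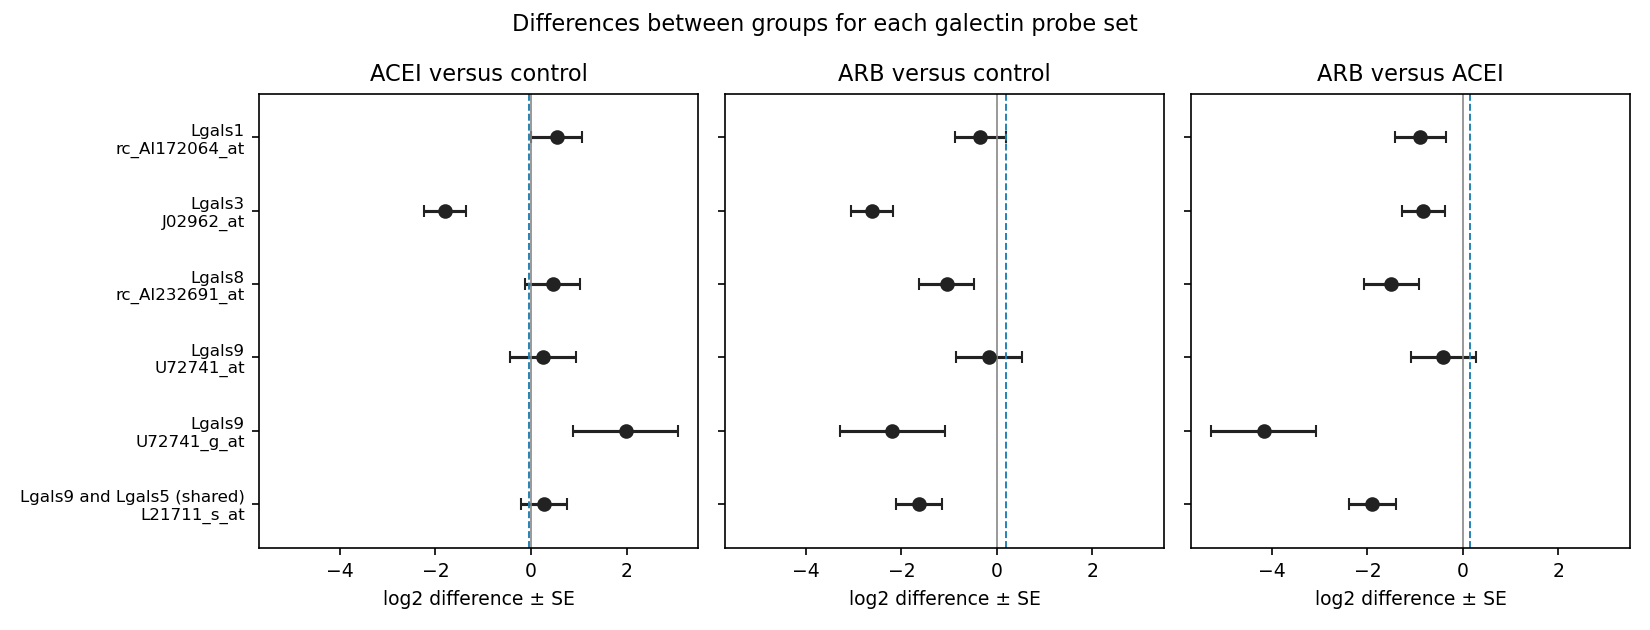
Log2 differences (x axis, on log2(intensity + 90), bars are the SE of the linear model) of each tested galectin probe set and of the shared one for each drug versus control and for ARB versus ACEI, with 2 arrays per group. The dashed line is the median of all 5244 tested probe sets. Lgals3 is the lowest in both comparisons with control, and U72741_g_at of Lgals9 is the lowest for ARB versus ACEI.

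The genes most like Lgals3 over the 6 arrays were found by Pearson correlation of log2 values among 4314 probe sets of other single symbols that passed the filter. They were Nr4a1 (r = 0.988), an immediate early nuclear receptor, Cxcl2 (0.977), a neutrophil chemokine, Rbpms (0.966), Nucb1 (0.962) and Nxf1 (0.955), an mRNA export factor. Nr4a1 read 10250.2 and 11120.3 in the control pair, 5419.5 and 5591 on ACEI and 3823 and 3529 on ARB, the same order of groups as Lgals3. Only 6 probe sets exceeded 0.95 with Lgals3, against 50 with Lgals1. The genes most like Lgals1 were Lyn (0.990), RT1-DMb (0.989), Lipa (0.989), Sec11a (0.985) and Sirpa (0.983). Those were low on control 2 and both ARB arrays, with Sirpa at 25.8, 101.9 and 78.2 there against 1149 to 3468 on the other 3. With 6 arrays in 3 groups and a shared scaling, such correlations are a description and carry no p.

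Molecules that galectins bind or that process them were split between higher and lower. Of 48 listed ligands and partners 37 were measured and 30 tested, with 16 higher and 14 lower for RAS blockade, a median of 0.08 against 0.13 over all, and 0 past an adjusted p of 0.05 in limma. At an unadjusted p under 0.05, where 5.07% of all tested probe sets were, there was 1. It was Fn1, fibronectin, which galectins cross-link in the matrix. Its brightest probe set read 12546 and 21121 in the control pair, 6535 and 9527 on ACEI and 6499.7 and 7151 on ARB. The difference was -1.14 ± 0.42 (limma, adjusted p = 0.863), while its other tested probe sets were at 0.17 and -0.02. Lgals3bp, the secreted glycoprotein named for binding galectin-3, was at 5985 and 2756 in the control pair, 7721 and 6895 on ACEI and 3651 and 4190.5 on ARB. It differed by 0.39 ± 0.44 for RAS blockade and by -0.16 without control 2, with its other probe set at 0.42. It was at 0.83 for ACEI and -0.06 for ARB minus control. Cd44, a hyaluronan receptor that carries galectin ligands, did not pass the filter, and its brightest probe set was at 440.9 and 295.3 in the control pair, 168.3 and 193.8 on ACEI and 139.8 and 122.0 on ARB. All 4 drug arrays were below both controls for that probe set, as for 3.72% of the tested ones, among which Cd44 is not counted. Both ARB values were below the highest foreign-transcript control of their arrays, so the ARB part of this is not resolved. The other Cd44 probe sets, which were dimmer, did not have all 4 drug arrays below both controls.

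No receptor or matrix partner passed the test for RAS blockade. Itgb1, the integrin beta chain that galectins bind, differed by -0.72 ± 0.42 and Itga1, an integrin alpha chain of the same receptors, by -0.60 ± 0.45. Thy1, a neuronal and stromal glycoprotein, was at 0.74 ± 0.43, with its other tested probe set at 0.30. For ARB minus control these Thy1 probe sets were at 0.78 and -0.67. The growth factor receptor Kdr was at 0.63 ± 0.41. Mmp7, a matrix protease, was at 0.93 ± 0.44, made of 0.15 for ACEI and 1.71 for ARB minus control. The ARB arrays also had the higher foreign-transcript values, and their part in the Mmp7 difference was not tested. The transferrin receptor Tfrc was at 1.11 ± 0.79, and at -0.53 without control 2. Lamc1, a laminin chain, was at 0.70 ± 0.54, and at -0.21 without control 2. The lysosomal membrane proteins Lamp1 and Lamp2, whose glycans galectins meet in damaged lysosomes, were at -0.39 ± 0.47 and -0.32 ± 0.48, and Lamp2 was at 0.33 without control 1. At these probe sets the directions differed by drug. ACEI and ARB minus control were 0.15 and -0.93 in Lamp1 and 0.43 and -1.07 in Lamp2. The other tested Lamp2 probe sets were lower with both drugs, at -0.64 and -1.58 for rc_AA800787_at and at -0.12 and -0.11 for M32016_at. Each gene named in this paragraph had, at its brightest probe set, an adjusted p of at least 0.863 for RAS blockade in limma.

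Enzymes that build or trim galectin ligands gave no call either. Of 43 listed genes 26 were measured and 19 tested, with 11 higher and 8 lower for RAS blockade, a median of 0.17 against 0.13 over all, and 0 past an adjusted p of 0.05 in limma. St6gal1, which caps galactose with sialic acid and so blocks galectin binding, was at 4788 and 4324 in the control pair, 4642 and 4307 on ACEI and 3289.5 and 3569 on ARB, a difference of -0.21 ± 0.38. Mgat5, which makes the branched N-glycans favoured by galectin-3, was not tested, with 23.4 and 25.1 in the control pair, 22.6 and 13.3 on ACEI and 262.3 and 84.4 on ARB. The sialidase Neu2 was at 122.5 and 71.4 in the control pair, 98.8 and 171.9 on ACEI and 593.6 and 1124.6 on ARB, a difference of 1.28 ± 0.43 and the sole gene of this list at an unadjusted p under 0.05. St8sia1, a ganglioside sialyltransferase, was at 0.74 ± 0.38, made of -0.15 for ACEI and 1.62 for ARB minus control. B4galnt1, a ganglioside synthase, was at 0.70 ± 0.41 and Mgat3, the bisecting enzyme, at 0.53 ± 0.52. Fut1, a fucosyltransferase, was at -0.83 ± 0.41, with its other tested probe set at 0.44, and the polysialyltransferase St8sia4 at 0.50 ± 0.61, or -0.47 without control 2. The ARB arrays, on which Neu2 and Mgat5 were highest, also had the higher foreign-transcript values given above, and their part in these differences was not tested.

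**Figure D4:**
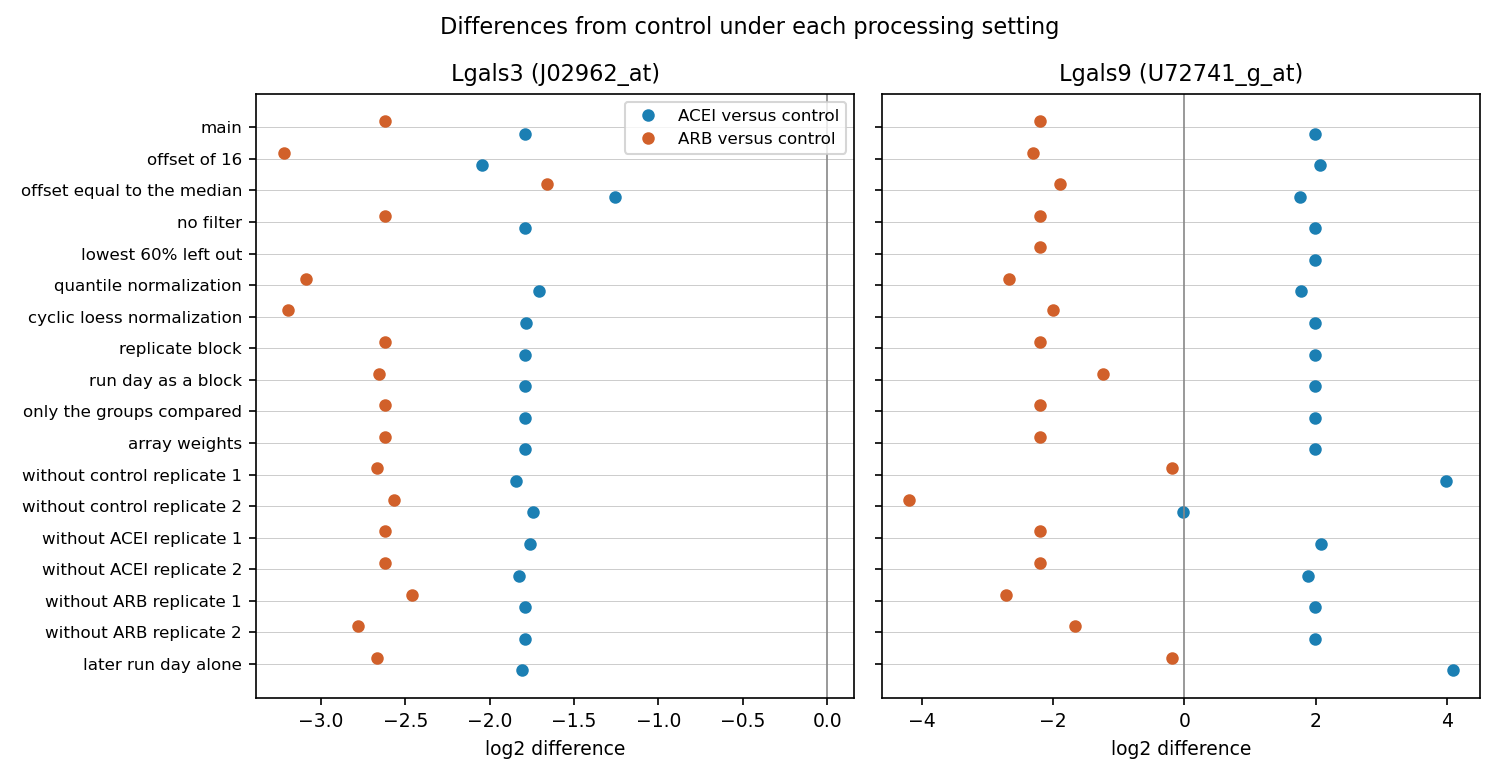
Log2 differences (x axis) for ACEI versus control (blue) and ARB versus control (orange) of Lgals3 (left) and of the Lgals9 probe set U72741_g_at (right) under each processing setting (y axis), 1 point per fit. All Lgals3 points lie below 0, between -3.22 and -1.26, and Lgals3 has no point where the lowest 60% were left out because it did not pass that filter. For U72741_g_at the ACEI point moves from 3.98 without control 1 to -0.02 without control 2.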

How the data were processed

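RNA of 6 arrays was analysed from the deposited value table, which holds 1 linear intensity per probe set and array. The authors had brought each array to nearly the same trimmed mean, as the values show, with software not stated in the labels. Run days, chip lots and fluidics protocols come from the run records, per the file headers, which hold other text settings only. Genes come from the platform annotation: 7018 probe sets had 1 symbol, 308 several and 1473 none. After 59 control probe sets were set aside, intensities were taken as log2(value + 90), the offset being the median of values above 0 (358.3) divided by 4 and rounded. Of 8740 probe sets the 40% lowest by mean log2 value were dropped, and 5244 were tested. Group means were fitted in limma 3.58.1 (R 4.3.3; 3 residual, 5.49 prior degrees of freedom). P-values are two-sided, with Benjamini-Hochberg adjustment over all tested probe sets and a threshold of 0.05. The fit was tested on simulated data. The number of arrays limits the precision. The members and lists were chosen with earlier results of these data known. A list gene was read at its probe set of highest mean. Named genes were all galectin probe sets, up to 8 ligands and partners and 6 glycan genes by size of the RAS blockade difference, a fixed few (Lgals3bp, Cd44, Itgb1, Lamp1, Lamp2, Mgat5, St6gal1), the 3 brightest markers of a cell type, and the 5 genes most like Lgals3 and Lgals1. Promoters were aligned in Biopython 1.88, and figures used matplotlib 3.10.9. The replicate numbers, read as 1 where a title had none, did not pair the arrays: deviations of same-numbered arrays from their group means correlated at 0.045, -0.015 and -0.0037 between groups. All arrays numbered 1 shared a fluidics protocol, and those numbered 2 shared a different protocol, so the replicate block is also the block for that step. Pecam1 and the unmeasured Cldn5, Cdh5 and Tek were named outside this rule, after values were seen. Alternatives were other offsets, filters and normalizations, replicate and run day blocks, array weights, fits without the third group, and each array left out.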

Additional observations from a re-analysis of the deposited data

How the results depend on the processing

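Lgals3 stayed lower than control in both drug groups under each of 16 alternatives, and had no value with the lowest 60% left out. Of 400 values of the galectin probe sets and the shared one, 369 kept their direction and side of the threshold, 24 changed sign and 7 passed the threshold. Of 301 values of the named partner and glycan genes these were 294, 6 and 1. Among the 400, the ARB versus ACEI fits without control 1, without control 2 and of those groups alone gave the same result. They are counted separately, so the passes are not independent. The fit of the later run day alone was chosen after seeing the data. The number of probe sets called (limma, adjusted p under 0.05), 0 in each comparison, was 3 for RAS blockade, 3 for ACEI, 4 for ARB and 4 for ARB versus ACEI with an offset equal to the median. It was 1 for RAS blockade with quantile and with cyclic loess normalization. With the replicate number as a block it was 3, 2, 4 and 1, and this replicate block changed no galectin call. For ARB versus ACEI it was 305 with only those groups in the fit and 518 with array weights. Leaving out 1 array gave 0 to 60 for RAS blockade, 0 to 261 for ACEI, 0 to 46 for ARB and 0 to 305 for ARB versus ACEI. Without control 1 these were 60, 261, 15 and 305, and without control 2 they were 2, 0, 46 and 305, the lone control being assumed to vary like the other groups.

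Leaving out 1 array moved RAS blockade across 0 for Lgals1 (-0.46 to 0.65), Lgals8 (-0.83 to 0.23), U72741_at (-1.05 to 1.13), U72741_g_at (-2.11 to 1.90), Tfrc (-0.53 to 2.76), Lamc1 (-0.21 to 1.60), Lgals3bp (-0.16 to 0.93), Lamp2 (-0.97 to 0.33) and St8sia4 (-0.47 to 1.46). It did so for ACEI in Lgals1 (-0.012 to 1.10), Lgals8 (-0.080 to 0.98), U72741_at (-0.84 to 1.34), U72741_g_at (-0.019 to 3.98) and L21711_s_at (-0.11 to 0.65), and for ARB in Lgals1 (-0.91 to 0.20) and U72741_at (-1.25 to 0.93). A lone control 1 or control 2 gave both ends of these ranges, except in L21711_s_at, whose ends came without ACEI 2 and ACEI 1. The later run day, which lacks control 1 and ACEI 1, gave 0.25 for Lgals8, 1.95 for U72741_g_at and 0.22 for Lamp2 (RAS blockade), and 0.20 for Lgals1 and 0.93 for U72741_at (ARB). With run day as a block U72741_at was at 0.42 for ARB and 0.17 for ARB versus ACEI, and U72741_g_at at 0.37 for RAS blockade. For RAS blockade, quantile normalization gave -0.11 for Lgals1 and -0.23 for U72741_at, which was at -0.072 with cyclic loess and -0.031 with an offset equal to the median. The cause of these changes was not tested. Signal near the foreign-transcript controls limits Lgals3 and Lgals8 on the ARB arrays, U72741_g_at of Lgals9 on ARB 2 and Lgals4 on all arrays. A floor at the highest of those controls, also chosen after seeing the data, turned Lgals3 for ARB versus ACEI from -0.83 to 0.85.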
